A study of Homo sapiens with 9 samples.

Results

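The genes described here are those of the liver X receptor (LXR) pathway and of oxysterol and cholesterol efflux metabolism: NR1H2, NR1H3, ABCA1, ABCG1, MYLIP, CH25H, CYP27A1, CYP7B1, APOE and SMPDL3A. They were chosen by symbol for their known roles, with earlier results of these data known, and all 10 were found among the 27548 rows of the deposited expression table, each on a single row. The RNA came from MDA-MB-231, a human breast cancer cell line without hormone receptor or HER2 expression, and each of 3 conditions had 3 libraries. Libraries S1 to S3 are control cells that received siCTL, a control siRNA (CTL+siCTL). Libraries S4 to S6 are cells that overexpress TLX, an orphan nuclear receptor, and received the same siRNA (TLX+siCTL). In S7 to S9 the TLX cells received siRNA directed at TLX itself (TLX+siTLX). All cells had been transfected for 48 h, so a siRNA was present in every group. How TLX was overexpressed, and whether the TLX cells were 1 clone, is not stated in the sources at hand, and other differences between the TLX cells and the control cells cannot be told apart from TLX. Nothing in the labels tells whether replicates came from separate cultures, and p-values therefore measure only library-to-library spread, which may be technical.

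LXRs are nuclear receptors that are switched on by oxysterols, the oxidised forms of cholesterol that accumulate when a cell holds much of it. As partners of RXR they bind DNA and raise genes that move cholesterol out of the cell and limit its uptake. ABCA1 and ABCG1 pump cholesterol onto lipoproteins, APOE carries it away, and MYLIP, also called IDOL, marks lipoprotein receptors for breakdown. CH25H and CYP27A1 make oxysterols and CYP7B1 clears them. In breast cancer the oxysterol that CYP27A1 makes is also known as a ligand of the oestrogen receptor.

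NR2E1, the gene of TLX, served as the check of the labels. Its log2 CPM (reads scaled to library size, on a log scale, as deposited) was -4.59, -4.28 and -4.50 in S1 to S3 (CTL+siCTL), 0.28, -0.84 and 0.23 in S4 to S6 (TLX+siCTL) and -2.61, -3.40 and -1.77 in S7 to S9 (TLX+siTLX), so the groups were ordered as labelled and did not overlap. Effective library sizes, recovered from the steps between low values, were 73.8 to 91.8 M reads. PC3, the name of a prostate line, stands unexplained in the control titles. All 8 markers chosen for MDA-MB-231 and mesenchymal breast cells, of which CAV1 and MSN are also in the pathway lists below, averaged a log2 CPM of at least 1, and their summed level was 4596 to 4725 CPM in control libraries, 5307 to 5488 CPM in S4 to S6 and 6573 to 6946 CPM in S7 to S9. The 9 luminal markers summed to 1000 to 1014, 707 to 732 and 880 to 975 CPM in the same order, with 4 of them, KRT8, KRT18, XBP1 and GATA3, at a mean of at least 1, while the hormone receptor genes ESR1 and PGR were below it. The 7 prostate markers summed to 36.6 to 40.4, 40.2 to 42.1 and 40.7 to 45.7 CPM, and HOXB13 was at 0 in all 3 control libraries. Of cell types known for these genes, 8 macrophage markers summed to 74.4 to 77.4, 46.4 to 47.2 and 79.5 to 90.3 CPM, with CD68 alone at a mean of at least 1 and AIF1 at 0 in all libraries of CTL+siCTL and TLX+siTLX. The 6 hepatocyte markers summed to 31.1 to 32.0, 53.4 to 58.9 and 82.5 to 89.9 CPM, with SERPINA1 alone at a mean of at least 1. Single markers of a list went either way. In TLX+siCTL against control cells, 5 of the 8 MDA-MB-231 markers rose and 2 fell by limma, VIM among the falls. Of the 9 luminal markers 1, GATA3, rose and 5 fell, where 15.0% of all rows rose and 15.1% fell. The part of these marker differences in the results below was not tested.

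LXR with RXR is known to bind a direct repeat of the hexamer AGGTCA with 4 bases between the copies (DR4). The 250 bases before the start site in RefSeq (GRCh38.p14) were available for 7 members in 12 windows, some genes having several starts, and ABCG1, CYP7B1 and SMPDL3A had no entry. On either strand, a DR4 with at most 1 mismatch in each hexamer was found in 1 of the 12 windows, that of ABCA1, against 1.18% of all 35116 windows. An exact DR4 was in none of the 12 and in 0.0142% of all. The hexamer AGGTCA was in 1 of the 12, the first window of NR1H3, against 12.1% of all, and AAGTCA, the hexamer known for TLX, was in 0 of the 12 against 10.9%. These are matches of letters only, and windows without them are simply without these letters. The stretches of ABCA1 and NR1H3 are shown because they hold the matches. That of ABCA1 runs from 250 bases before the start site to the end of the DR4 (chr9:104928209-104928405, minus strand), and its last 29 bases lie past the most upstream start of ABCA1 in the GENCODE 29 annotation. Capitals mark the 2 hexamers, at positions -69 to -54 from the RefSeq start.
ABCA1: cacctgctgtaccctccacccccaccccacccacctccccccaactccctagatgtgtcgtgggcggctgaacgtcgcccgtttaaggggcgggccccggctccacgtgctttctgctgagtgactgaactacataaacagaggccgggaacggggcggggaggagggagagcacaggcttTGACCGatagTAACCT
Read on the plus strand (chr9:104928209-104928224) the repeat has the order of the motif.
ABCA1 DR4: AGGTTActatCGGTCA
The NR1H3 window (chr11:47248050-47248299, plus strand) has the hexamer in capitals, at positions -140 to -135 from the first RefSeq start.
NR1H3: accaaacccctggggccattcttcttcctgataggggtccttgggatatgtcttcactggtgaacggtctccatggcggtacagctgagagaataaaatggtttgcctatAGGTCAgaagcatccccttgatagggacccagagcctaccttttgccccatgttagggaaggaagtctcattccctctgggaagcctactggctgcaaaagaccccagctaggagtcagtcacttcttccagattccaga

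The members covered a wide range of levels, compared here as log2 CPM per kb of exon in the GENCODE 29 basic set, since long transcripts give more reads. In control cells NR1H2 was highest at 5.61 ± 0.02 (SD, n = 3), followed by ABCA1 (4.12 ± 0.03), MYLIP (3.45 ± 0.04), CYP27A1 (3.01 ± 0.07), SMPDL3A (2.84 ± 0.08), CH25H (2.06 ± 0.29) and NR1H3 (1.49 ± 0.16). APOE (-0.03 ± 0.03), ABCG1 (-1.70 ± 0.06) and CYP7B1 (-3.62 ± 0.35) were lowest. No neighbours in this order overlapped between their libraries in CTL+siCTL or in TLX+siCTL. In TLX+siCTL ABCA1, at 1.82 ± 0.47, was below SMPDL3A (3.27 ± 0.03), MYLIP (2.94 ± 0.16) and CYP27A1 (2.52 ± 0.14), and CH25H at 0.35 ± 0.20 was below NR1H3 at 0.91 ± 0.08. In TLX+siTLX the ranges of SMPDL3A (3.16 ± 0.09) and ABCA1 (2.65 ± 0.58), of ABCA1 and MYLIP (2.58 ± 0.19), and of APOE (-0.96 ± 0.44) and ABCG1 (-1.92 ± 0.63) overlapped. By estimated reads, CYP7B1 had 8.0 to 22.0 reads in a library, APOE 33.1 to 95.5 and ABCG1 57.1 to 170.4, and every other member at least 142, so these 3 have the widest counting error.

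**Figure D1:**
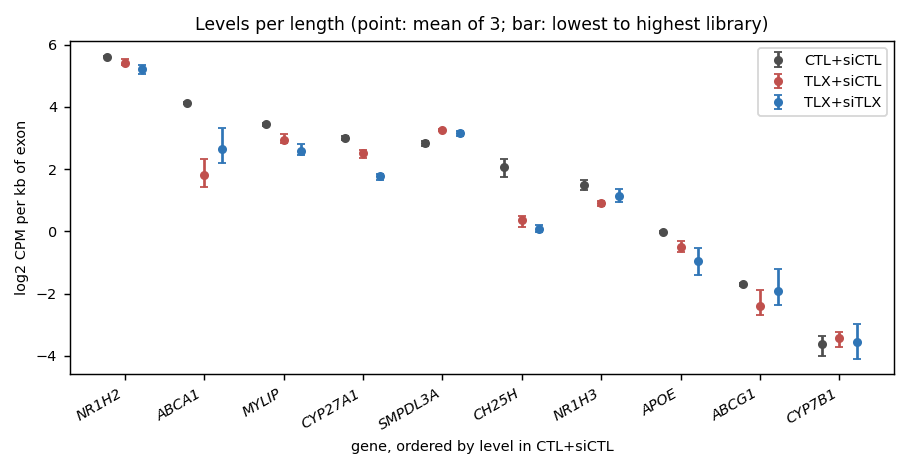
Level of each member per length, as log2 CPM per kb of exon on the vertical axis, with genes on the horizontal axis in the order of their level in CTL+siCTL. Points are means of 3 libraries and bars run from the lowest to the highest library; NR1H2 is at the top in each group, while ABCA1 goes from 4.12 in CTL+siCTL to 1.82 in TLX+siCTL and 2.65 in TLX+siTLX.

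The first comparison, TLX+siCTL against CTL+siCTL, asks how TLX-overexpressing cells differed from control cells. ABCA1 and CH25H fell most, by 4.92-fold and 3.28-fold, NR1H3, CYP27A1 and MYLIP fell by 1.41-fold to 1.49-fold, and SMPDL3A rose by 1.34-fold. By limma, 5 of the 10 members fell and 1 rose, where 30.1% of all rows were called, 15.1% falling and 15.0% rising. Of the 12564 rows averaging a log2 CPM of at least 1, 56.6% were called, 27.4% falling and 29.3% rising, and the 5 falls and the rise were all among the 7 members at that level. The median log2 fold change was -0.50 over the 10 members and 0.00 over all rows. The groups did not overlap for 9 of the 10 members, CYP7B1 being the exception, where 41.4% of all rows and 71.6% of rows at that level did not overlap. In bulk RNA, fewer cells of a type and less RNA per cell cannot be told apart.

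The second comparison, TLX+siTLX against TLX+siCTL, asks how TLX cells differed once given the TLX siRNA. CYP27A1 fell further, by 1.67-fold, and MYLIP by 1.28-fold. ABCA1 had a mean 1.78-fold higher but did not pass the test. In all, 2 of the 10 members fell and 0 rose by limma, where 23.7% of all rows were called, 10.9% falling and 12.7% rising. Among rows averaging at least 1 these shares were 45.8%, 22.0% and 23.8%, and the 2 falls were among the 7 members at that level. ABCA1 and NR1H2 had an unadjusted p under 0.05 (0.0217 and 0.0256) without passing the adjusted threshold. The median log2 fold change was -0.18 over the members and 0.00 over all rows, and the groups did not overlap for 3 of the 10, against 33.9% of all rows and 58.3% of rows averaging at least 1.

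The third comparison, TLX+siTLX against CTL+siCTL, asks how far the TLX cells still were from control cells after the siRNA. CH25H was lower by 3.94-fold, ABCA1 by 2.76-fold, CYP27A1 by 2.35-fold, APOE by 1.90-fold, MYLIP by 1.82-fold and NR1H2 by 1.32-fold, while SMPDL3A was higher by 1.24-fold. Thus 6 of the 10 members fell and 1 rose by limma, where 34.6% of all rows were called, 17.0% falling and 17.7% rising. Among rows averaging at least 1 these shares were 63.6%, 31.2% and 32.4%. In this comparison APOE was the only called member below that level, which 7 of the 10 members reached. The third comparison had a median log2 fold change of -0.63 over the members and 0.00 over all rows. The groups did not overlap for 7 of the 10, against 42.2% of all rows and 71.1% of rows averaging at least 1. The 3 comparisons share groups, so their values are set side by side and are not independent of each other. Over all 3 groups at once, the limma F test called 8 of the 10 members, all but ABCG1 and CYP7B1, where it called 40.7% of all rows and 75.1% of rows averaging at least 1.

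**Figure D2:**
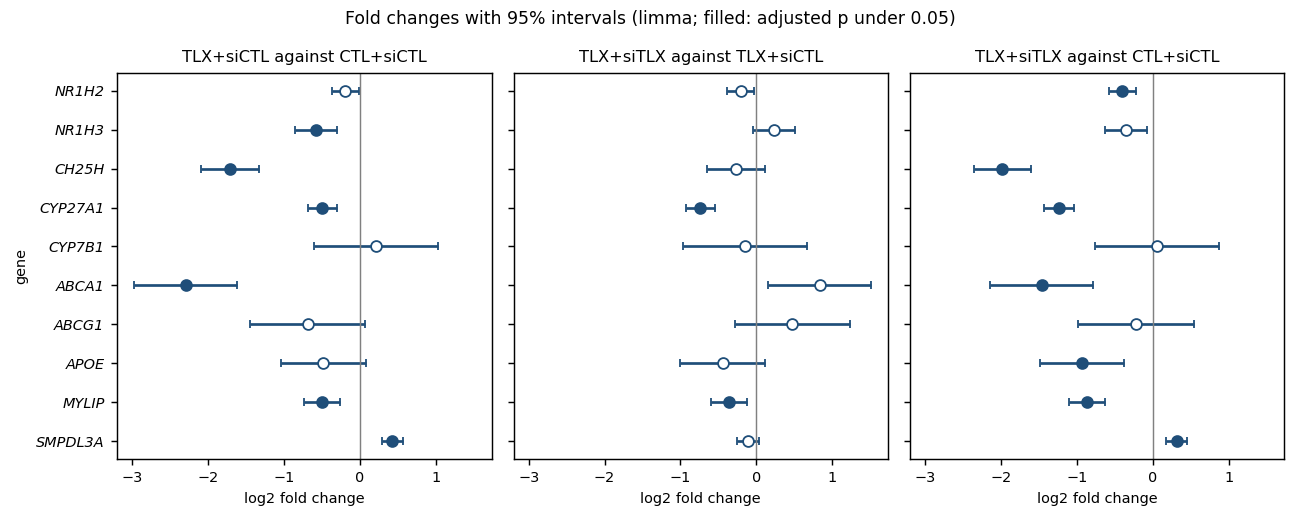
Log2 fold change of each member on the horizontal axis, with its 95% interval from limma, for the 3 comparisons in separate panels. Filled points have an adjusted p under 0.05: 6 in TLX+siCTL against CTL+siCTL, 2 in TLX+siTLX against TLX+siCTL and 7 in TLX+siTLX against CTL+siCTL.

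The receptors are encoded by NR1H2 (LXRβ, found in most tissues; ENSG00000131408, GRCh38 chromosome 19, 50329653 to 50382982) and NR1H3 (LXRα, known from liver, fat and macrophages; ENSG00000025434, chromosome 11, 47248300 to 47269032). The log2 CPM of NR1H2 was 6.66, 6.70 and 6.68 in S1 to S3 (CTL+siCTL), 6.40, 6.59 and 6.47 in S4 to S6 (TLX+siCTL) and 6.11, 6.31 and 6.42 in S7 to S9 (TLX+siTLX). The control libraries were above all 6 others, while the TLX+siCTL and TLX+siTLX ranges overlapped. Its log2 fold change was -0.19 ± 0.08 (SE, adjusted p = 0.103) in TLX+siCTL and -0.40 ± 0.08 (adjusted p = 0.00323) in TLX+siTLX against control cells. Between the TLX groups NR1H2 was -0.21 ± 0.08 (adjusted p = 0.0917) and kept its side of the threshold in 16 of the 19 other settings. With library medians of all rows centred it passed (-0.35, adjusted p = 0.00507). The log2 CPM of NR1H3 was 3.46, 3.28 and 3.15 in S1 to S3 (CTL+siCTL), 2.73, 2.79 and 2.63 in S4 to S6 (TLX+siCTL) and 2.75, 2.90 and 3.18 in S7 to S9 (TLX+siTLX). All 3 TLX+siCTL libraries were below all control libraries, and S9 of TLX+siTLX reached the range of the controls. NR1H3 fell by 0.58 ± 0.12 on the log2 scale in TLX+siCTL against control cells (adjusted p = 0.00616). Its later values did not pass the test, at 0.23 (95% interval -0.05 to 0.50, adjusted p = 0.248) against TLX+siCTL and -0.35 (-0.63 to -0.07, adjusted p = 0.0537) against control cells. The last of these kept its side of the threshold in 12 of the 19 other settings of the closing section. It passed in the rest, among them the 3 other scalings with S9 kept, and without S9 (-0.47, adjusted p = 0.0141). On the opposite strand, NR1H3 overlaps ACP2, NR1H2 overlaps NAPSA and further genes, and ABCA1, described below, overlaps AL359182.1. The library kit keeps strand, per the labels, and no source used here says whether the counting used it, so these values are uncertain to that extent.

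Among the enzymes, CH25H, a hydroxylase that makes an oxysterol known from macrophages (ENSG00000138135, chromosome 10, 89205629 to 89207314, a gene without overlapping annotation), had a log2 CPM of 3.07, 2.87 and 2.51 in S1 to S3 (CTL+siCTL), 1.20, 1.23 and 0.88 in S4 to S6 (TLX+siCTL) and 0.82, 0.96 and 0.73 in S7 to S9 (TLX+siTLX). Every control library was above every TLX library by more than the spread within a group. CH25H fell by 1.71 ± 0.17 in TLX+siCTL (adjusted p = 6.88e-05) against control cells, on the log2 scale. In TLX+siTLX CH25H fell by 1.98 ± 0.17 against control cells (adjusted p = 2.04e-05). Between the TLX groups the difference was -0.27 (95% interval -0.65 to 0.11, adjusted p = 0.326).

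CYP27A1, the mitochondrial sterol hydroxylase (ENSG00000135929, chromosome 2, 218781749 to 218815293), was 1 of the 2 members that fell at each step, the other being MYLIP. Its log2 CPM was 4.14, 4.20 and 4.27 in S1 to S3 (CTL+siCTL), 3.79, 3.78 and 3.55 in S4 to S6 (TLX+siCTL) and 2.83, 3.03 and 3.04 in S7 to S9 (TLX+siTLX), with no overlap between any of the groups. It fell by 0.50 ± 0.09 on the log2 scale in TLX+siCTL against control cells (adjusted p = 0.00205), and fell by 0.74 ± 0.09 in TLX+siTLX against TLX+siCTL (adjusted p = 0.000355). The whole difference between TLX+siTLX and control cells was -1.23 ± 0.09 (adjusted p = 6.67e-06). CYP7B1, an oxysterol-clearing hydroxylase (ENSG00000172817, chromosome 8, 64587763 to 64798761), was near the detection limit. Its log2 CPM was -2.88, -2.36 and -2.22, then -2.11, -2.58 and -2.14, then -2.47, -2.95 and -1.84 in the 3 groups, which overlapped throughout. The 95% intervals of its log2 fold changes, -0.61 to 1.02, -0.96 to 0.67 and -0.76 to 0.88, leave room for a change in either direction, and CYP7B1 shares its strand with AC104232.2, so its value is uncertain.

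ABCA1, the pump that loads cholesterol onto apolipoprotein A-I (ENSG00000165029, chromosome 9, 104781002 to 104928237), had the largest fall of the members in TLX+siCTL. Its log2 CPM was 7.64, 7.58 and 7.61 in S1 to S3 (CTL+siCTL), 5.18, 4.92 and 5.83 in S4 to S6 (TLX+siCTL) and 5.70, 5.92 and 6.81 in S7 to S9 (TLX+siTLX). The 3 controls lay close together and above all other libraries, while S6 of TLX+siCTL lay above S7 of TLX+siTLX, so the TLX groups overlapped. ABCA1 fell by 2.30 ± 0.30 on the log2 scale in TLX+siCTL against control cells (adjusted p = 0.000383) and was lower by -1.46 ± 0.30 in TLX+siTLX (adjusted p = 0.00425). Between the TLX groups it was higher in TLX+siTLX by 0.83 ± 0.30 (95% interval 0.15 to 1.51, adjusted p = 0.0806). In the authors' deposited table the signed fold changes of ABCA1 were -4.93, 1.80 and -2.74, with a false discovery rate of 0.0470 for the value between the TLX groups. The main test thus missed the threshold where the authors' table passed it.

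ABCG1, which moves cholesterol to HDL (ENSG00000160179, chromosome 21, 42199689 to 42297244), was low in all groups. Its log2 CPM was 0.42, 0.50 and 0.54 in S1 to S3 (CTL+siCTL), -0.49, -0.41 and 0.29 in S4 to S6 (TLX+siCTL) and -0.02, -0.18 and 0.99 in S7 to S9 (TLX+siTLX). The TLX+siCTL libraries were below the controls, with S6 near them, and S9 was above all controls. Its log2 fold changes did not pass the test, at -0.69 (95% interval -1.45 to 0.07, adjusted p = 0.170), 0.47 (-0.29 to 1.23, adjusted p = 0.407) and -0.22 (-0.98 to 0.54, adjusted p = 0.672). APOE, the apolipoprotein that takes up cholesterol and is bound by lipoprotein receptors (ENSG00000130203, chromosome 19, 44905754 to 44909393), had a log2 CPM of 0.27, 0.24 and 0.22 in S1 to S3 (CTL+siCTL), -0.40, -0.03 and -0.28 in S4 to S6 (TLX+siCTL) and -0.67, -1.13 and -0.26 in S7 to S9 (TLX+siTLX). The controls were above the other 6 libraries. APOE was lower by -0.93 ± 0.24 in TLX+siTLX than in control cells (adjusted p = 0.0161), while -0.48 ± 0.24 in TLX+siCTL (adjusted p = 0.191) and -0.45 ± 0.24 between the TLX groups (adjusted p = 0.255) did not pass. APOE and AC011481.3 overlap on the same strand, so reads could be split between them. The same holds for ABCG1 with RNA5SP492 and for MYLIP with MIR4639.

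**Figure D3:**
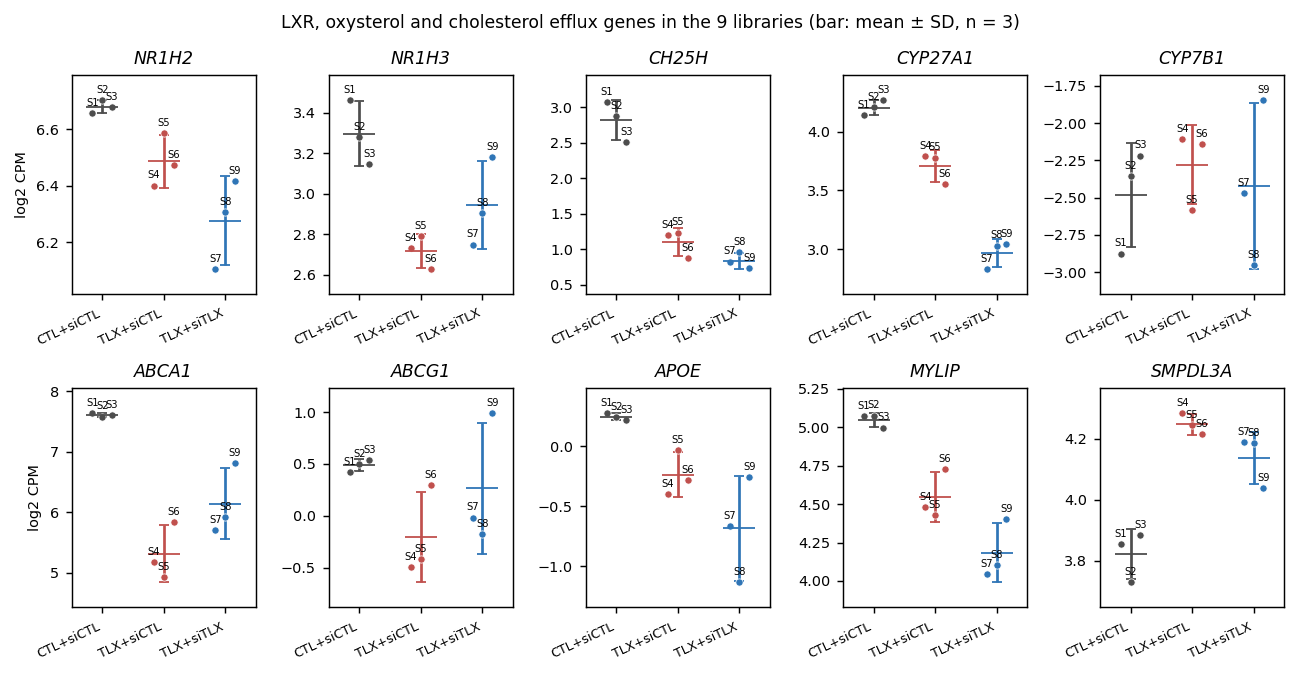
Log2 CPM of each member on the vertical axis, in its own scale, for the 9 libraries on the horizontal axis grouped as CTL+siCTL, TLX+siCTL and TLX+siTLX. Points are libraries, labelled S1 to S9, and bars give the mean ± SD of 3. The control libraries of ABCA1, APOE and MYLIP are tightly grouped, and S6 and S9 are the highest libraries of their groups for ABCA1, ABCG1 and MYLIP.

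The remaining members are LXR targets with other roles. MYLIP, a ubiquitin ligase of lipoprotein receptors (ENSG00000007944, chromosome 6, 16129125 to 16148248), had a log2 CPM of 5.07, 5.08 and 5.00 in S1 to S3 (CTL+siCTL), 4.48, 4.43 and 4.73 in S4 to S6 (TLX+siCTL) and 4.05, 4.10 and 4.40 in S7 to S9 (TLX+siTLX). The groups did not overlap, and the order was downward from control to TLX+siCTL to TLX+siTLX. MYLIP fell by 0.50 ± 0.11 on the log2 scale in TLX+siCTL (adjusted p = 0.00598) and fell by 0.86 ± 0.11 in TLX+siTLX (adjusted p = 0.000204), each against control cells. Between the TLX groups it fell by 0.36 ± 0.11 (adjusted p = 0.0368). That last difference lost its call with only these groups in the fit (adjusted p = 0.141), without an intensity trend (adjusted p = 0.0734) and when any of S1 to S8 was left out (adjusted p = 0.0581 to 0.140) and passed without S9 (-0.47, adjusted p = 0.0109). SMPDL3A, a secreted phosphodiesterase of the acid sphingomyelinase family (ENSG00000172594, chromosome 6, 122789049 to 122809720), went the other way. Its log2 CPM was 3.86, 3.73 and 3.88 in S1 to S3 (CTL+siCTL), 4.28, 4.24 and 4.22 in S4 to S6 (TLX+siCTL) and 4.19, 4.18 and 4.04 in S7 to S9 (TLX+siTLX), so that every TLX library was above every control library. SMPDL3A rose by 0.43 ± 0.06 in TLX+siCTL (adjusted p = 0.000694) and by 0.31 ± 0.06 in TLX+siTLX (adjusted p = 0.00323) against control cells. Between the TLX groups its difference was -0.11 (95% interval -0.25 to 0.03, adjusted p = 0.261). That difference kept its side of the threshold in 18 of the 19 other settings. With library medians of all rows centred it passed (-0.25, adjusted p = 0.0139).

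Within the TLX groups, 2 libraries stood apart for ABCA1, ABCG1 and MYLIP. Against the mean of the other 2 libraries of its group, S6 was higher by 0.78 for ABCA1, 0.75 for ABCG1 and 0.27 for MYLIP on the log2 scale. S9 was higher by 0.99, 1.09 and 0.33 for the same genes. Differences of this kind were not shared by all members: for SMPDL3A they were -0.05 in S6 and -0.15 in S9, for CH25H -0.34 and -0.16, and for APOE -0.07 and 0.64. S6 was the highest library of its group for 3 of the 10 members. S9 was the highest library of its group for 8 of the 10 members, and the median of its differences was 0.34 over the members and -0.01 over all rows averaging a log2 CPM of at least 1. The 10 other LXR targets of that level were mixed, with S6 the highest library of its group for 5 of them and S9 for 6. S6 was above the mean of its group's other 2 libraries for 5 of them and below it for 5, from -0.17 for MERTK to 0.24 for SREBF1. S9 was above for 7 and below for 3, from -0.12 for SCD to 0.46 for SREBF1, with a median of 0.04. NR2E1 was 0.23 in S6, within the range of its group, and -1.77 in S9, the highest of TLX+siTLX. The part of these libraries in the comparisons was measured by leaving out both, which was chosen after seeing the data. Both were the highest of their groups for ABCA1, ABCG1 and MYLIP. Leaving them out therefore lowers the TLX group means of these genes and narrows their spread by construction. Calls that these genes gain in that refit are no separate support. Without these libraries 6 members fell and 1 rose in TLX+siCTL against CTL+siCTL, and 8 fell and 1 rose in TLX+siTLX against CTL+siCTL. Between the TLX groups 2 fell and 1 rose. In the same refit 27.5%, 31.8% and 18.8% of all rows were called in these comparisons, each less than with all 9 libraries. ABCG1 then passed the test against control cells in both TLX groups (-0.94, adjusted p = 0.00487, and -0.58, adjusted p = 0.0212). ABCA1 then passed between the TLX groups (0.76, adjusted p = 0.00955), with 2 libraries left in each of them, while leaving out S9 alone gave 0.50 (adjusted p = 0.229) and leaving out S6 alone 1.09 (adjusted p = 0.0501).

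**Figure D4:**
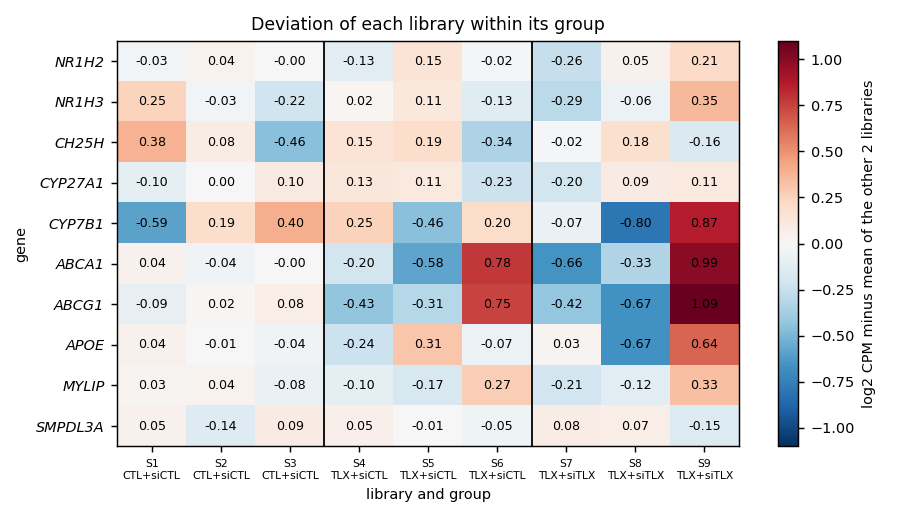
Difference of each library (horizontal axis) from the mean of the other 2 libraries of its group, in log2 CPM, for each member (vertical axis), with the value printed in each cell and red above and blue below 0. S6 and S9 are the reddest cells for ABCA1 (0.78 and 0.99) and ABCG1 (0.75 and 1.09), and the control libraries S1 to S3 are near 0 for the same genes.

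The wider pathway was described with 6 lists that hold 90 genes, all with a row, and 66 of them averaged a log2 CPM of at least 1. Of the 90, 30 fell and 10 rose in TLX+siCTL against CTL+siCTL (median log2 fold change -0.16), 13 fell and 23 rose in TLX+siTLX against TLX+siCTL (median 0.01), and 32 fell and 18 rose in TLX+siTLX against CTL+siCTL (median -0.16). The share called was 44.4%, 40% and 55.6% of the 90, where 30.1%, 23.7% and 34.6% of all rows were called. Among the 66 it was 59.1%, 50% and 74.2%, beside 56.6%, 45.8% and 63.6% of all rows of that level, and the counts of each list below are to be read against these shares. Of 18 other LXR target genes, 8 fell and 1 rose in the first comparison (median -0.38), 2 fell and 6 rose in the second (median -0.01) and 5 fell and 1 rose in the third (median -0.21). Of the 10 among them that averaged at least 1, 8, 7 and 6 were called in the 3 comparisons (80%, 70% and 60%, beside 56.6%, 45.8% and 63.6% of all rows of that level). In the first, 7 of these 10 fell and 1 rose, where 27.4% of such rows fell and 29.3% rose. The list was chosen with earlier results of these data known, so these shares are descriptions only. LPCAT3, a lysophospholipid acyltransferase, fell by 1.25 ± 0.07 (adjusted p = 4.29e-06), rose by 0.71 ± 0.07 after the siRNA and remained lower than in control cells by -0.55 ± 0.07. SREBF1, the gene of the lipogenic factor SREBP1, fell by 0.69 ± 0.15 and then rose by 0.78 ± 0.15. FASN, the fatty acid synthase, fell by 0.97 ± 0.10 and did not pass the test after the siRNA (-0.10 ± 0.10), and the efferocytosis receptor MERTK fell by 0.96 ± 0.05. APOC1, a neighbour of APOE and a small apolipoprotein, rose by 0.93 ± 0.14 and then fell by 0.61 ± 0.14.

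Of 11 LXR partners and coregulators, 4 fell and 1 rose in the first comparison, 2 fell and 3 rose in the second, and 5 fell and 1 rose in the third. Their median log2 fold changes were -0.17, 0.04 and -0.16. The 10 that averaged at least 1 were called at 50%, 50% and 60%, near the 56.6%, 45.8% and 63.6% of all such rows. Of the RXR genes, RXRB fell by 0.25 ± 0.08 in the third comparison (adjusted p = 0.0344), its symbol being on 6 rows so that reads may be split. RXRA was 0.08 ± 0.05 in the first comparison (adjusted p = 0.266) and rose by 0.17 ± 0.05 in the second and by 0.25 ± 0.05 in the third. NRIP1, a corepressor of several nuclear receptors, fell by 1.34 ± 0.09 in TLX+siCTL. The coactivator gene NCOA3 rose by 0.28 ± 0.06 and then fell by 0.61 ± 0.06.

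Of 13 other oxysterol and bile acid enzymes, 3 fell and 0 rose in the first comparison, 0 passed in the second by limma (1 had an unadjusted p under 0.05) and 4 fell and 0 rose in the third (medians -0.16, -0.07 and -0.20). All of these calls were among the 5 that averaged at least 1, so 60%, 0 and 80% of those were called, beside 56.6%, 45.8% and 63.6% of all such rows. CYP39A1, an oxysterol-clearing hydroxylase, fell by 1.63 ± 0.15 in TLX+siCTL (adjusted p = 5.24e-05) and by 1.64 ± 0.15 in TLX+siTLX against control cells. DHCR7, a late enzyme of cholesterol synthesis, fell by 0.67 ± 0.14 in TLX+siCTL. Of 18 oxysterol sensors and binding proteins, 4 fell and 2 rose, 6 fell and 4 rose, and 8 fell and 4 rose in the order of the comparisons (medians -0.10, -0.13 and -0.18). Of the 16 that averaged at least 1, 37.5%, 56.2% and 68.8% were called, against 56.6%, 45.8% and 63.6% of all such rows. These counts include TM7SF2, an enzyme of cholesterol synthesis rather than a sensor or binding protein. TM7SF2 fell by 0.69 ± 0.11 in the first comparison. NPC1, which exports cholesterol from lysosomes, fell by 0.47 ± 0.05 and then by 0.49 ± 0.05. INSIG1, which binds oxysterols and holds SREBP in the endoplasmic reticulum, was -0.07 ± 0.12 in the first comparison and fell by 0.50 ± 0.12 in the second. Its log2 CPM was 8.80, 8.73 and 8.74 in S4 to S6 and 8.42, 8.42 and 7.93 in S7 to S9. Part of that fall thus came from S9. OSBPL3, an oxysterol-binding protein relative, rose by 0.51 ± 0.10 in TLX+siCTL.

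Of 21 other efflux, storage and lysosomal transport genes, 7 fell and 5 rose, 1 fell and 6 rose, and 7 fell and 7 rose in the order of the comparisons (medians -0.20, 0.15 and -0.18). Of the 16 that averaged at least 1, 75%, 37.5% and 87.5% were called, against 56.6%, 45.8% and 63.6% of all such rows. ABCA2, an ABC transporter of endolysosomes, rose at each step, by 0.38 ± 0.06 and 0.93 ± 0.06, as did CAV1, the caveolar coat gene (0.96 ± 0.05 and 0.99 ± 0.05), and the acid sphingomyelinase gene SMPD1 (0.64 ± 0.04 and 0.39 ± 0.04). LIPA, the lysosomal acid lipase, fell by 0.51 ± 0.06 and then by 0.92 ± 0.06. The last list joins the lipoprotein receptors that MYLIP marks, its FERM-domain relatives and myosin light chains. Of these 9 genes, all averaging at least 1, 4 fell and 1 rose, 2 fell and 4 rose, and 3 fell and 5 rose, or 55.6%, 66.7% and 88.9% called beside the same shares of all such rows. VLDLR, a receptor of triglyceride-rich lipoproteins, fell by 0.23 ± 0.06 and then by 0.24 ± 0.06. Centring each library on the median of all rows moved all fold changes of the first comparison by 0.12 and of the second by -0.14, so the direction of small list medians rests on the scaling. It turned the median of LXR partners and coregulators in the second comparison to -0.10 (4 fell, 1 rose). It also turned that of oxysterol sensors in the first to 0.02 (3 fell, 4 rose) and that of the MYLIP list in the first to 0.11 (2 fell, 2 rose). With that centring 4 oxysterol and bile acid enzymes fell and 0 rose in the second comparison, where 9 sensors fell and 1 rose, 3 efflux genes fell and 5 rose, and 3 genes of the MYLIP list fell and 2 rose. In the first, 4 efflux genes fell and 5 rose, and 3 LXR partners fell and 2 rose. Without S6 and S9 the median of the second comparison was 0.10 for the enzymes and 0.00 for the other LXR targets.

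**Figure D5:**
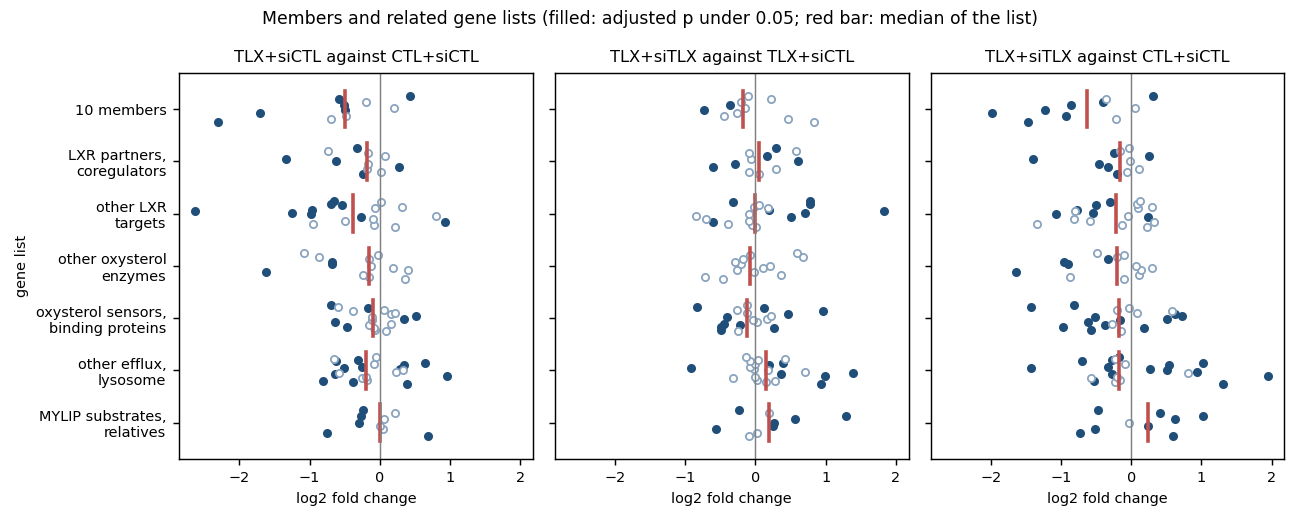
Log2 fold change (horizontal axis) of the 10 members and of the genes of 6 related lists (vertical axis) in the 3 comparisons. Each point is a gene, filled where its adjusted p is under 0.05, and red bars are list medians; the median of the 10 members is -0.50 in the first panel, -0.18 in the second and -0.63 in the third.

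The genes whose pattern over the 9 libraries was most like that of a member were found by the root mean square difference between standardised log2 CPM profiles, among 11885 other symbols averaging a log2 CPM of at least 1. For ABCA1 they were COL6A3, a collagen VI chain (0.16), CCNG1 (0.19) and SUMF1 (0.21). COL6A3 had means of 3.87, 2.52 and 2.99 in the 3 groups. For CH25H they were RND3, a small GTPase (0.11), EIF5 and the cytokine GDF15 (both 0.12). For MYLIP they were the ubiquitin ligase gene RNF145 (0.13), SIPA1L1 and the stress gene NUPR1 (both 0.16), and for CYP27A1 they were TOR3A, CECR7 and IFT27 (all 0.12). For NR1H3 they were MFAP2 (0.16), CSRNP1 (0.22) and DEDD (0.27). For NR1H2 they were AC008763.2 (0.15), VAT1 and ZNF579 (both 0.21), and for SMPDL3A STRBP, PHF6 (both 0.15) and GPATCH11 (0.16). These values are descriptions of 9 libraries in 3 groups and carry no test.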

How the data were processed

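The members and gene lists were chosen with earlier results of these data known. The authors deposited log2 CPM values for 27548 rows and 9 libraries, and a further table whose fold changes (a signed score, a fall being minus the inverse ratio), raw p-values and false discovery rates are the authors' own. Kallisto 0.44.0, limma, edgeR and GRCh38 are named in the submitters' processing notes, with no role or order. Table columns give a group and a number of their own, found in no label, so they were mapped to groups only, and 0 columns were left unmapped. The common floor of -5.33 was read as a prior count of 2. In a library, 29.5% to 30.4% of values were within 0.01 of a whole read, so no count test was run. That share includes the values at 0, which were 18.45% to 20.08% of rows.

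The log2 values as deposited were fitted with limma 3.58.1 in R 4.3.3: a mean per group, all 9 libraries, intensity trend, two-sided, Benjamini-Hochberg adjustment over all rows, threshold 0.05. The fit was tested on simulated data. The prior count understates changes of low genes. Genes were placed with GENCODE 29. Named were all members, the 3 genes most like each member that passed the F test and averaged at least 1, and per list and comparison up to 4 called genes of a mean log2 CPM of at least 1 with the largest fold change; RXRA and VLDLR were added after their values were seen. The alternatives are given in the closing section. Some genes that the rule names are not reported here.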

Additional observations from a re-analysis of the deposited data

How the results depend on the processing

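Each comparison was refitted with rows of a mean log2 CPM of at least 1 only, on the log2(CPM + 1) scale, with 3 other scalings, without an intensity trend, with only the 2 groups compared, with rows of a symbol summed, with the authors' deposited false discovery rates, without each library in turn and, as added after seeing the data, without S6 and S9. Of 561 fold changes of members recomputed in this way, 526 kept their direction and their side of the threshold, 20 passed newly, 10 no longer passed and 5 changed sign. In TLX+siTLX against TLX+siCTL the number of members called, 2, was 4 among rows with a mean of at least 1, 4 with library medians of all rows centred, 1 without an intensity trend and 1 with only the 2 groups compared. Leaving out each library gave 1 to 3. The 10 lost calls were all of MYLIP in that comparison. The sign changes were of genes that did not pass: CYP7B1 in TLX+siTLX against TLX+siCTL (-0.43 to 0.12 over the libraries left out), CYP7B1 in TLX+siTLX against CTL+siCTL (-0.23 to 0.33, and -0.23 without S6 and S9) and ABCG1 in the same comparison (-0.58 without S6 and S9 to 0.00063 without S8). No paired analysis was possible because the columns carry no replicate number that is in the labels. APOE, ABCG1 and CYP7B1 have no value among rows with a mean of at least 1. With few reads for CYP7B1, changes within its intervals were not detectable at this depth.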
